A study of Mus musculus with 2 samples.

Results

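Bcl6 and 9 genes of the growth hormone pathway through STAT5 were examined in mouse liver: the receptor Ghr, its kinase Jak2, the transcription factors Stat5a and Stat5b, the output genes Igf1 and Igfals, and the feedback genes Cish, Socs2 and Socs3. They are 10 of the 19938 genes that the array names by a single symbol. A probe here is a probe set, and each gene was taken from its brightest probe over both arrays. The set was chosen by values of this comparison: Bcl6 was selected on its low value in the knockout pool, and the pathway genes were added around it. All values below are therefore descriptions without a test.

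The wild-type group was a pool of left-lobe liver RNA from 3 male mice of genotype wild-type, and the other group a pool from 3 male mice of genotype FHL2-/-. All mice were 10 to 11 weeks old, on the background Hybrid Black Swiss/129-SV/J, with no treatment given in the labels. Each pool went onto 1 array, so the spread between mice cannot be seen and every difference is between these pools. Fhl2, which encodes a LIM-domain cofactor, was at 5.30 in the wild-type pool and 5.33 in the other on the log2 scale. Both values lay below the level filter of 5.44 set out below, so the gene was dim in wild-type liver too. The deleted exons are not given in the labels either, so the value does not check the genotype. The pool is therefore called knockout-labelled. Hepatocyte markers were bright and alike in both pools, with a mean log2 level over 9 measured markers of 12.9 in each, and differences from -0.07 for Ttr to 0.16 for Asgr1. In whole tissue, fewer cells of a type and less RNA per cell cannot be told apart.

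Growth hormone binds its receptor on hepatocytes and activates the receptor-bound kinase JAK2, which phosphorylates STAT5. STAT5 enters the nucleus, binds DNA sites of the form TTCNNNGAA, and drives Igf1, Igfals and the feedback genes Cish and Socs2, whose proteins damp the receptor. BCL6 is a zinc finger repressor that can recognise similar sites. In mouse liver its gene is known to be more active in males than in females, to be repressed by continuous growth hormone, and to oppose STAT5 at many genes that are more active in females.

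Promoter stretches are shown where they hold this kind of site, at which STAT5 and BCL6 are both known to bind. RefSeq windows of build GRCm38.p6, from 250 bases before to 50 after an annotated start, were found for 9 of the 10 genes, 15 windows in all. Socs2 had no window. Starts are numbered in the direction of transcription. TTCNNNGAA, which reads the same on both strands, occurred in 6 of the 15 windows and in 4 of the 9 genes, namely Bcl6, Cish, Socs3 and Igfals. It occurred in 8.3% of all 32851 mouse windows of that length, and in 9.55% of the 27025 genes that have such windows. The windows of Ghr, Jak2, Stat5a, Stat5b and Igf1 did not have these letters. Capitals mark the motif in the stretches that follow.
Bcl6 start 1, chr16:23988933-23989002, minus strand: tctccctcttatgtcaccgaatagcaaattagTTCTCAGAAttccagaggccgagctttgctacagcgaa
Bcl6 start 2, chr16:23981344-23981473, minus strand: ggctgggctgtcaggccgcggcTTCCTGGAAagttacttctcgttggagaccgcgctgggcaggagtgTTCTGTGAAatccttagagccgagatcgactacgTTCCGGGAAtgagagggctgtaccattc
Cish start 1, chr9:107296639-107296682, plus strand: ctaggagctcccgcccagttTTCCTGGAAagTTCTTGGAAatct
Socs3 start 1, chr11:117969487-117969546, minus strand: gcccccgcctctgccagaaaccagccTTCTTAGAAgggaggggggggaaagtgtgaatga
Igfals start 1, chr17:24877594-24877643, plus strand: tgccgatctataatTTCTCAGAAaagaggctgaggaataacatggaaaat
Igfals start 2, chr17:24878163-24878192, plus strand: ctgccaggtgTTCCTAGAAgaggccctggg

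The second Bcl6 start, which lies inside the gene, had 3 copies of the motif, which begin at positions -168, -122 and -88 relative to it. Windows with at least 3 copies were 11 of the 32851 (0.0335%). The Cish pair began at the annotated start itself, at bases 1 and 12, and windows with at least 2 copies were 0.457% of all. A match in letters is not a measured binding site, and each gene's array value covers its transcript as a whole and does not separate its starts.

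**Figure D1:**
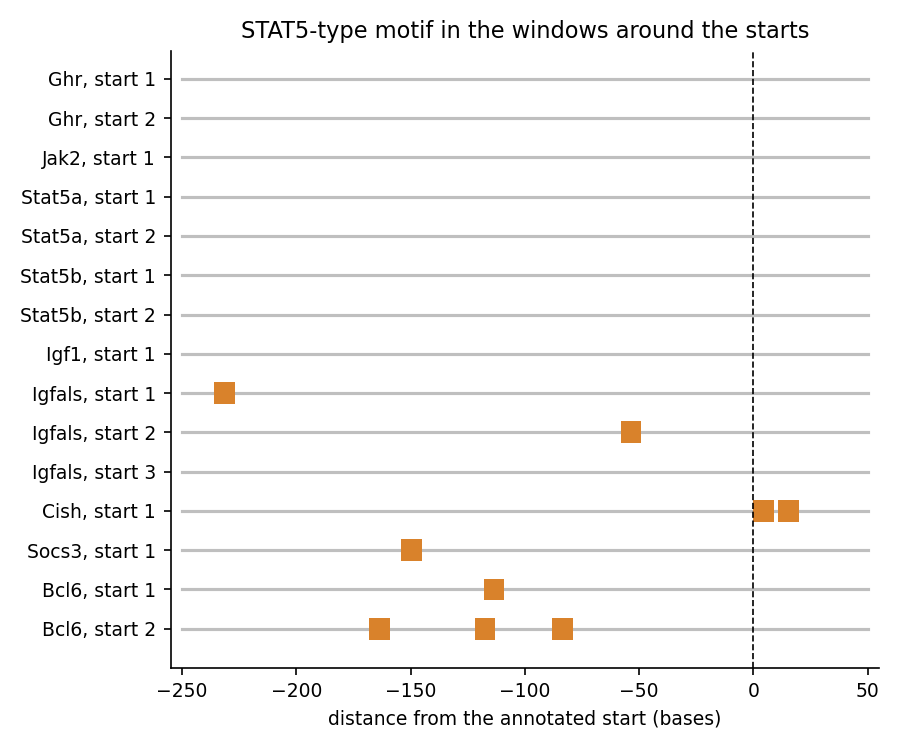
Places of the motif TTCNNNGAA (orange boxes) in the 15 windows from 250 bases before to 50 after an annotated start, with distance from the start in bases on the horizontal axis. Bcl6 start 2 has 3 boxes, Cish has 2 at the start, and the windows of Ghr, Jak2, Stat5a, Stat5b and Igf1 have none.

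Bcl6 was at 8.75 in wild-type and 6.77 in knockout-labelled liver on the log2 scale. The transcript of this repressor was thus 3.94-fold lower, at 25.4% of its wild-type level. The difference of -1.98 was 13.8 times the SD of 0.143 between probes of the same gene. That SD was taken over 660 genes with 1809 probes and covers differences between probes only, not animals or hybridisations. Probes named for 1 gene that measure different transcripts would be part of it. Bcl6 has 1 probe, so no other probe repeats its value.

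All 10 genes passed the level filter, a mean of at least 5.44 on the log2 scale, which is the 40th percentile of probes with 1 symbol. Of these 10, 1 was at least 1.5-fold lower and 0 were at least 1.5-fold higher, beside 0.335% lower and 0.621% higher among the 11924 genes past the filter. The 1 is Bcl6, for which the set was assembled. As a guide to background, the 95th percentile of 1015 olfactory receptor genes was 5.01 in wild-type and 4.97 in knockout-labelled liver. The Bcl6 value lay above those levels in both pools.

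The Bcl6 difference, on which the gene was selected, was the lowest of all 11924 genes. It was also the lowest of all 19938 genes without the level filter, so a filter at the 60th percentile cannot change this place. A shift to a common median moves every gene alike and cannot change it either. Bcl6 stayed lowest after removal of the trend on level and with probes of a gene averaged, although its own single probe is unchanged by averaging. The genes nearest to it in difference were Creld2, an endoplasmic reticulum stress protein, at -1.07, S1pr2, a sphingosine phosphate receptor, at -0.95, and the histone gene H2bc9, at -0.94. The closest of them was still 0.91 away from Bcl6. Likeness over 2 arrays is no more than nearness in this 1 difference. Among the 500 genes closest to Bcl6 in mean level, between 7.67 and 7.85, differences ran from -0.55 to 0.91. Bcl6, as the lowest of all genes, must lie below this range, so the comparison adds nothing to its rank.

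**Figure D2:**
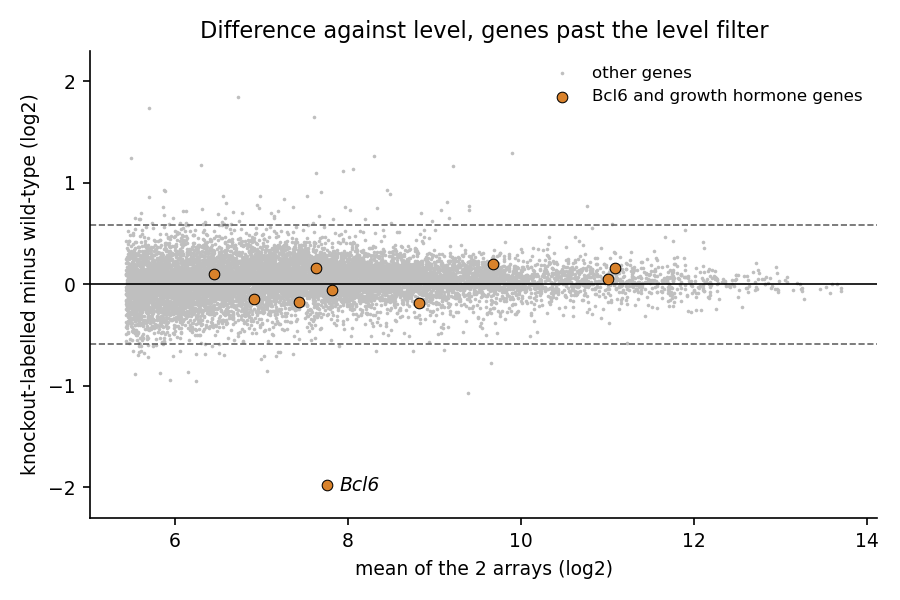
Difference between the pools (knockout-labelled minus wild-type, log2) against the mean of both arrays (log2) for 11924 genes past the level filter, with the 10 genes of the set in orange and dashed lines at 1.5-fold. Bcl6 stands at -1.98, below the next gene at -1.07, and the other 9 lie between -0.19 and 0.20.

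The receptor and its kinase differed little. Ghr, the growth hormone receptor, was at 10.98 in wild-type and 11.04 in knockout-labelled liver, a difference of 0.05. Of 500 genes of like level 52.6% had a lower difference. Jak2, the kinase bound to that receptor, was at 7.85 and 7.79, a difference of -0.06. Both differences were under 0.143, the SD between probes.

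Both STAT5 genes were slightly lower in the knockout-labelled pool. Stat5b, the main STAT5 of liver, was at 8.92 in wild-type and 8.73 in knockout-labelled liver, which is 1.14-fold lower. Stat5a, its close relative, was at 7.53 and 7.36, or 1.13-fold lower. The differences of -0.19 and -0.17 were just over the SD between probes, and 5.2% and 7.2% of genes of like level were lower still. The genes are next to each other on their chromosome and encode near-identical proteins, so shared probe sequence is possible and their agreement is not that of unrelated measurements.

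The output genes were slightly higher in the knockout-labelled pool. Igf1, the circulating growth factor made by liver, was at 11.01 in wild-type and 11.18 in knockout-labelled liver, which is 1.12-fold higher. Igfals, the subunit that holds IGF1 in its large serum complex, was at 9.59 and 9.79, or 1.15-fold higher. These differences, 0.16 and 0.20, were 1.13 and 1.41 times the SD between probes. Of genes of like level 87.6% had a lower difference than Igf1 and 92% a lower one than Igfals.

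**Figure D3:**
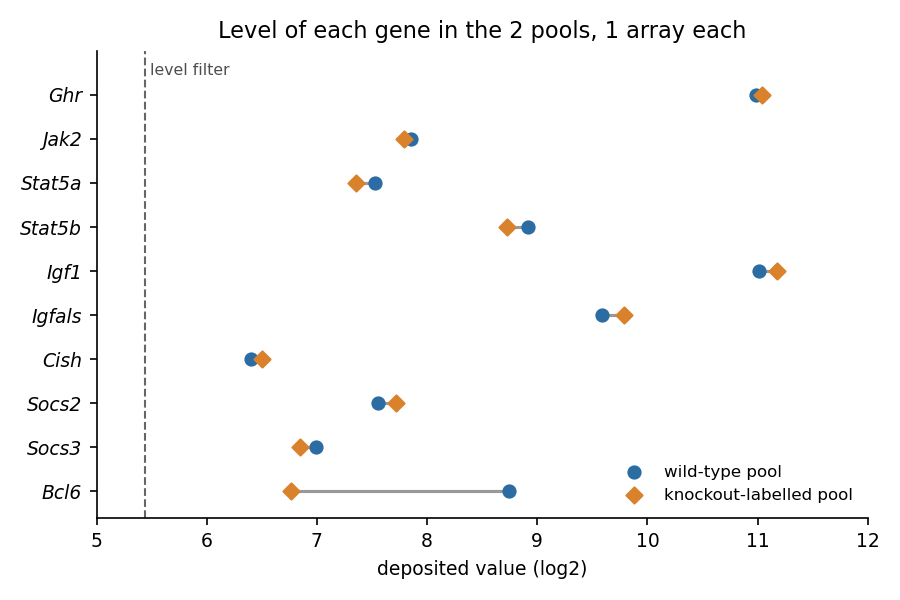
Deposited log2 value of each gene in the wild-type pool (blue circles) and the knockout-labelled pool (orange diamonds), 1 array each, with the level filter of 5.44 as a dashed line. Bcl6 was at 8.75 and 6.77, whereas for the other 9 genes the points of both pools lie within 0.20 of each other.

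The feedback genes gave small differences of both signs. Cish, an early STAT5 target whose protein blocks the receptor, was at 6.40 in wild-type and 6.51 in knockout-labelled liver, a difference of 0.10. Socs3, which is induced mainly through STAT3 by interleukin-6, was at 6.99 and 6.85. Its dimmer probe was at 5.72 and 5.56, so its probes gave like differences of -0.15 and -0.16.

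Socs2, the feedback inhibitor most closely tied to growth hormone, had 2 probes that disagreed in sign. The brighter probe, which represents the gene here, was at 7.55 in wild-type and 7.72 in knockout-labelled liver, a difference of 0.16. The dimmer probe was at 6.56 and 6.47, a difference of -0.09, and the mean over both was 0.04. Of the 20 named probes with adjacent identifiers, 17 belong to genes of chromosome 12 for the brighter probe and 19 to genes of chromosome 10 for the dimmer one. Socs2 itself is on chromosome 10 in the reference table. Which transcript the brighter probe measures was not tested, so no direction can be given for Socs2.

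Seen as a group, the 9 genes beside Bcl6 ranged from -0.19 to 0.20, with 5 above 0 (the brighter Socs2 probe among them), 4 below and a median of 0.05, against a median of 0.04 over all genes past the filter. The size of the difference was above the SD between probes, 0.143, for 6 of them, the brighter Socs2 probe included, and 0 reached 1.5-fold. Which genes were above that SD depended on the setting. With the trend on level removed Igf1 (0.129) and Socs2 (0.100) were below it. With a common median Stat5a (-0.130) and Socs3 (-0.106) were below it in size and Cish (0.145) above. With the mean over probes Socs2 (0.038) was below it. All 9 lay within the middle 95% of genes of like level. None of the 9 changed sign with a common median, with the trend on level removed or with the mean over probes, and the dimmer probe of Socs2 was the exception named above.

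**Figure D4:**
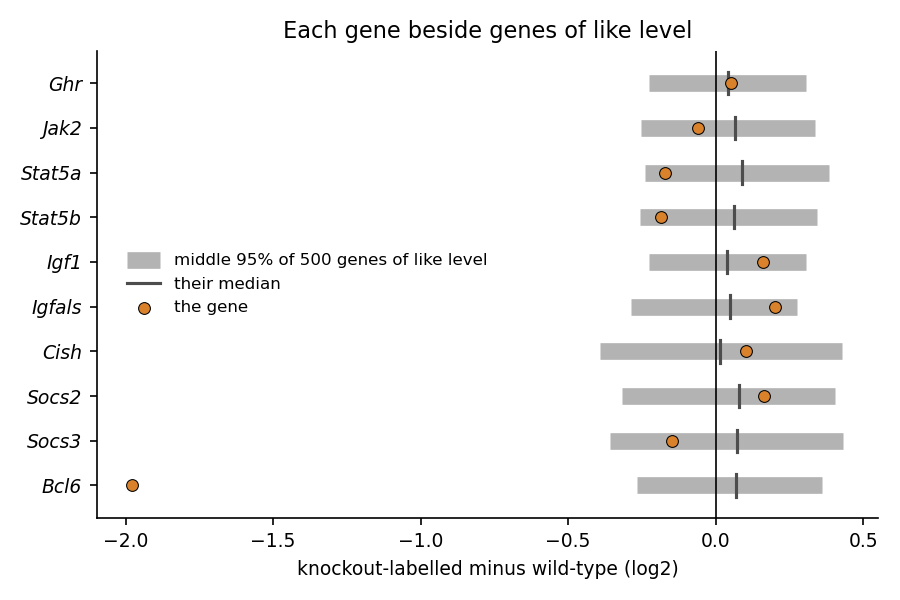
Difference of each gene (orange, log2) beside the middle 95% (grey bar) and the median (dark tick) of the 500 genes closest to it in mean level. Bcl6, which was selected on its low value, is at -1.98, outside its bar of -0.26 to 0.36, and the other 9 genes lie inside theirs.

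Other genes of the signalling pathway were described from lists, always for the members past the level filter. These lists, and those further below, were chosen with earlier results of these data known. Their counts beside the share of all genes are therefore descriptions and not tests. Of 5 other Janus kinase and STAT genes 4 were above 0 and 0 reached 1.5-fold. Stat3, which carries interleukin-6 signals, was at 0.29, Jak1, the partner kinase of many cytokine receptors, at 0.15, and Stat2, of the interferon response, at 0.04. Tyk2, another kinase of the family, was at -0.26. Of 12 related receptors and adaptors 7 were above 0, with 0 past 1.5-fold, from Grb2, an adaptor to the RAS pathway, at -0.19 to Sh2b2, an adaptor that binds JAK2, at 0.22. Lifr, a receptor of the interleukin-6 family, was at 0.19 and Irs2, an insulin signalling adaptor, at -0.17. The list's median of 0.03 was -0.01 once the trend on level was removed.

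The other brakes on JAK-STAT signalling, mostly SOCS, phosphatase and PIAS genes, had 12 of 15 above 0 and a median of 0.15. Of all genes past the filter 59.5% were above 0. Socs4 was at 0.33 and Socs7 at 0.29, both of the SOCS family, the phosphatase gene Ptpn6 was at -0.15, and the adaptor gene Sh2b3 at -0.04. Again 0 reached 1.5-fold in either direction.

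In the remaining IGF axis, 5 of 9 genes were above 0 and 0 reached 1.5-fold. Igfbp3, the binding protein that joins IGF1 and IGFALS in serum, was at 7.69 in wild-type and 7.37 in knockout-labelled liver. The Igfbp3 difference of -0.32 was opposite in sign to those of Igf1 and Igfals. Igfbp1, a binding protein that insulin represses, was at -0.29, the insulin receptor gene Insr at 0.23, and Igfbp5, another binding protein, at 0.20. The median of 0.02 was -0.02 with the trend on level removed.

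Among relatives and corepressors of BCL6, 7 of 11 genes were above 0 and 0 reached 1.5-fold. Bcor, a corepressor that binds the BTB domain of BCL6, was lower, from 6.26 to 5.90, a difference of -0.35. Hdac3, a histone deacetylase of the corepressor complexes, was at 0.29, and Zbtb16 and Zbtb7a, related BTB zinc finger genes, at 0.34 and -0.15. The list median was 0.05, and -0.01 with the trend on level removed.

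Of 9 liver transcription factors linked to growth hormone, 9 were above 0, or 7 with the trend on level removed, while 59.5% of all genes past the filter were above 0. The median was 0.09, and 1 of the 9 was at least 1.5-fold higher, as were 0.621% of all genes. That 1 was Onecut1, a homeobox factor which growth hormone is known to regulate, at 7.67 in wild-type and 8.94 in knockout-labelled liver, or 2.41-fold higher. Cebpb, a bZIP factor of the acute phase, was at 0.37. The female-specific repressor Cux2 was at 5.87 and 5.89, close to the filter level in both pools, and Foxa2, at 0.01, turned to -0.05 with the trend on level removed.

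Liver genes with a known sex bias under growth hormone had differences of both signs. Of 9 female-biased genes 5 were above 0, 2 were at least 1.5-fold higher and 1 as much lower, beside 0.621% and 0.335% of all genes, and 12 further measured genes of the list lay below the filter. Cyp17a1, a steroid hydroxylase, was at 6.20 and 7.00, and Cyp2b10, a xenobiotic hydroxylase, at 6.25 and 6.91, both higher in the knockout-labelled pool. Abcd2, a peroxisomal transporter, was at 6.91 and 6.22, and Cyp3a44 was at -0.43. With the filter at the 60th percentile the median of 0.02 became -0.31 and 0 were past 1.5-fold on either side. With no filter 3 were higher and 2 lower. The genes added, both below the filter, were Cyp2b9 at 4.68 and 5.72 and Acot3, also on the lipid list below, at 5.38 and 4.55.

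Male-biased genes had 7 of 20 above 0, beside 59.5% of all genes past the filter. Their median was -0.05, beside 0.04 over all genes, and 0 were past 1.5-fold. Ugt2b38, a glucuronosyltransferase, was at -0.38 and the elongase Elovl3 at -0.27, while the complement gene C4a was at 0.30 and the Nudix hydrolase Nudt7 at 0.18. The list median was -0.01 after the shift to a common median, which adds 0.04 to every difference. It was -0.08 with the trend on level removed. Urinary protein, cytochrome P450 and complement genes have near-identical relatives that can share probes, so single values in these families are uncertain.

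BCL6 has been described as opposing the lipid genes that PPARα activates in liver. The list of such lipid genes had 13 of 18 above 0, beside 59.5% of all genes past the filter. Its median was 0.15, beside 0.04 over all genes. At least 1.5-fold higher were 3 of the 18 (beside 0.621% of all genes), and 0 were as much lower. Acot4 was at 6.12 and 6.99, Acot2 at 6.60 and 7.35, both acyl-CoA thioesterases, and Angptl4, a lipase inhibitor, at 7.88 and 8.52. The fatty acid transporter Cd36, also of this list and named here after its value was seen, was at 8.31 and 8.83. On the other side Pdk4, which restrains pyruvate oxidation, was at -0.24 and Cyp4a14, a fatty acid hydroxylase that is also on the female-biased list, at -0.19. Acot3, a further thioesterase of the list below the level filter, was at 5.38 and 4.55, so that 1 gene was at least 1.5-fold lower with no filter. Acot genes are close relatives whose probes can overlap. Whether these values are linked to the Bcl6 difference was not tested.

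**Figure D5:**
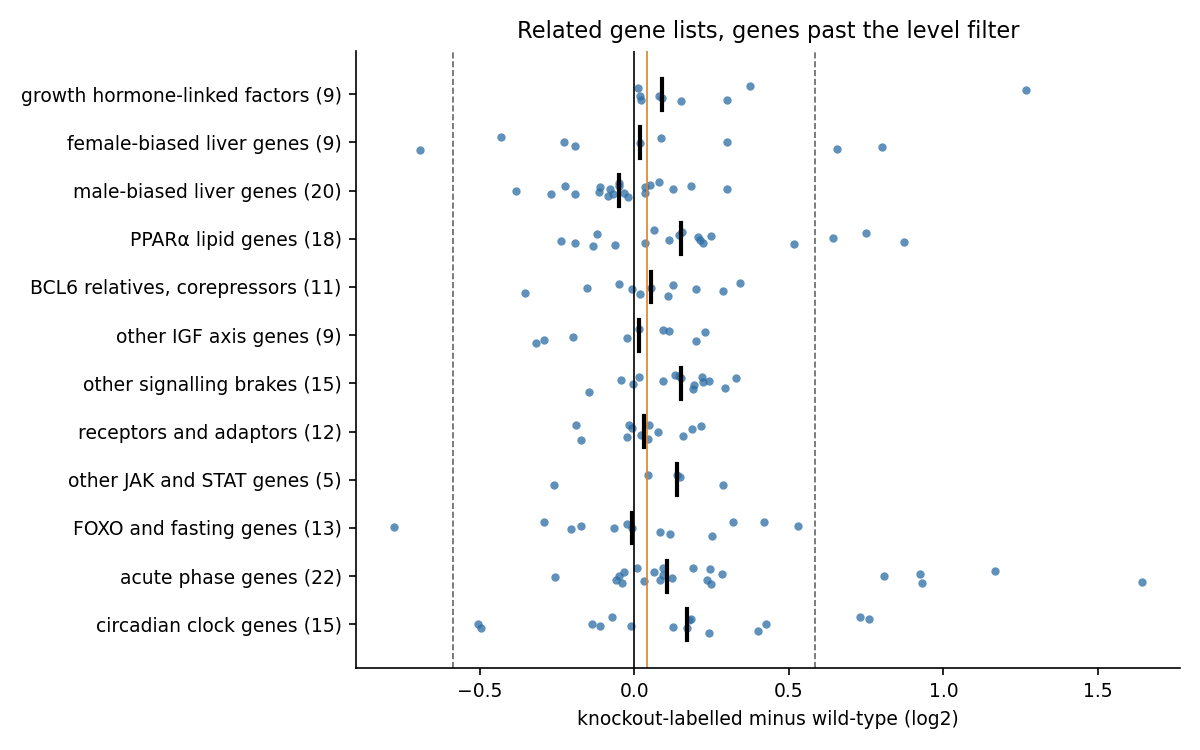
Difference between the pools (log2) for each gene of 12 related lists past the level filter, with the number of genes in brackets, black bars at list medians, dashed lines at 1.5-fold and an orange line at 0.04, the median of all genes. Most points lie inside the dashed lines, and those past them are Onecut1, the FOXO gene Depp1 at -0.78, and genes of the acute phase, clock, lipid and female-biased lists.

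Values of other groups in the same pools are given for comparison. Acute phase genes, which respond to interleukin-6 as Socs3 does, had 5 of 22 at least 1.5-fold higher (0.621% of all genes were), with Lcn2, an iron-siderophore binding protein, at 1.64 and Saa2, a serum amyloid, at 1.17. The others past 1.5-fold were Saa1 and Orm3, both at 0.93, and Orm2 at 0.81, with A2m, a protease inhibitor, at -0.26 and the fibrinogen gene Fgg at -0.06. Their mean log2 level was 10.00 in wild-type and 10.30 in knockout-labelled liver, while Socs3 was lower by 0.15. Kupffer cell and macrophage markers were below 0 in 10 of 11 cases, with mean levels of 7.99 and 7.83 and differences from -0.40 for Adgre1 to 0.22 for C1qc. Among all genes past the filter 59.5% were above 0. With a common median 3 of the 11 markers were above 0, and 1 with the trend on level removed. The part of acute phase and macrophage RNA in the values of the set was not tested. B cells can carry much Bcl6 RNA. Of 8 measured B cell markers 1 passed the filter, Cd79b at 5.76 and 5.90, and their mean level was 4.76 in wild-type and 4.78 in knockout-labelled liver.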

How the data were processed

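Biotin-labelled cDNA from 300 ng of pooled RNA was hybridised to whole-transcript arrays, 1 per genotype. The authors deposited 1 log2 value per probe set and array. Per the submitters' processing notes, Affymetrix Expression Console 1.0, RMA and Partek 6.4 were used, with roles, settings and genome build not given in the sources used here. Differences of dim transcripts are understated by RMA, and a change in total RNA per cell would not show.

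Of 28853 probes, 21789 had 1 symbol in the platform annotation, 1621 several and 5443 none. Only the first were named, and 21698 matched the mouse reference table by Entrez identifier. Array medians were 5.76 (wild-type) and 5.71. Differences are the knockout-labelled minus the wild-type value, without further scaling. With 1 array per group there is no test, and precision is limited by the number of arrays. The members and lists were chosen with earlier results of these data known. Of 287 list symbols 259 were measured. Genes named from lists were those past 1.5-fold and the 2 highest and 2 lowest in difference. Markers of 10 cell types were read. Steps were tested on simulated data. Python 3.11.15, pandas 2.3.3 and statsmodels 0.14.6 were used. Alternatives were a common median, lowess with a span of 0.3, the mean over probes, other level filters, and 200 or 1000 genes of like level.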

Additional observations from a re-analysis of the deposited data

How the results depend on the processing

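Bcl6 ran from -2.04 with the trend on level removed to -1.94 with a common median. The differences of all 10 genes moved by less than 0.143 under these settings and the mean over probes. A common median adds 0.04 to every difference, and the mean over probes can move only Socs2 and Socs3, which have 2 probes each. The dimmer probe of Socs2, an alternative added after the data were seen, gave -0.088 in place of 0.16. Percentiles among genes of like level, in 40 comparisons with other numbers of genes or another matching, stayed within the counting error of separate sets of genes. The sets compared overlap, so this closeness is partly built in. With no filter on level, 153 genes passed 1.5-fold on the higher side and 133 on the lower, and with a filter at the 60th percentile 41 and 14, since other numbers of genes are counted, against 74 and 40. A common median gave 90 and 30. No paired analysis was possible because each genotype has 1 array. A replicate could not be left out for the same reason. The arrays carry no detection call, so signal over background is known only from the olfactory receptor genes.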

Other observations

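The genes beside Bcl6 on its chromosome did not share its difference. Of the 3 measured genes on each side, Rtp4, an interferon-induced chaperone, was at -0.03, the somatostatin gene Sst at -0.11 and Lpp, a LIM-domain adhesion protein and the next gene on 1 side, at -0.18. Rtp2 at 0.23, Mir28a at 0.31 and Tprg at -0.01 lay below the level filter.

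Of 15 circadian clock genes past the filter, 2 were at least 1.5-fold higher (0.621% of all genes were) and 0 as much lower. The 2 were Dbp, a clock output factor, at 6.99 in wild-type and 7.75 in knockout-labelled liver, and Bhlhe40, a clock repressor, at 7.66 and 8.39. Arntl, which encodes the activator BMAL1, was at -0.51 and the repressor gene Cry1 at -0.50, short of 1.5-fold. The list median of 0.17 became -0.01 with the filter at the 60th percentile. FOXO and fasting genes, a group to which Bcl6 itself is often assigned, had 6 of 13 above 0 and 1 at least 1.5-fold lower (0.335% of all genes were). This was Depp1, an autophagy regulator, at 10.04 and 9.27, while the gluconeogenic genes G6pc and Pck1 were at 0.53 and 0.42. The times of day and the feeding state at which livers were taken are not in the labels, and their part in the Bcl6 difference was not tested.

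Markers of other cell types had 0 genes past 1.5-fold. Endothelial markers were above 0 in 9 of 10 cases, beside 59.5% of all genes past the filter. Their median was 0.12, from Lyve1 at -0.04 to Kdr at 0.20. With the trend on level removed 7 of the 10 were above 0 and the median was 0.07. Stellate cell markers had 4 of 10 above 0, from Col1a1 at -0.37 to Rgs5 at 0.23, and their median of -0.04 became 0.0047 with a common median. Of bile duct markers 3 passed the level filter, led by Krt19 at 0.27, with Sox9 at -0.11. The T and NK cell list had 3 past it, the lowest being Cd8a at -0.40, the neutrophil list 1, S100a9 at -0.16, and the fat cell list 2, Fabp4 at -0.32 and Plin1 at -0.22. Skeletal muscle markers had 3 of 6 above 0, from Tnnt3 at -0.39 to Mylpf at 0.26.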
